A study of Rattus norvegicus with 15 samples.

Results

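Genes of endoplasmic reticulum (ER) protein folding and of the unfolded protein response were examined in primary rat hepatocytes exposed to naphthalene or to hydroxylated relatives of it. The set held 30 genes chosen by name: soluble chaperones, disulfide isomerases, lectin chaperones, factors of ER-associated degradation, stress sensors with their transcription factor, and parts of the translocation machinery. Of these, 28 had at least 1 array probe matched by transcript accession (37 probes in all), and all 28 were tested among 19803 features, 10503 of them with a gene symbol. Manf and Derl2 had no probe matched here. The probe used for each of the 28 genes was well above background on all 15 arrays, so the filter on dim probes removed none of them.

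The cells were frozen hepatocytes of male rats of the strain given as Wister in the labels. They were cultured for 24 h and then kept for 24 h with Naphthalene, 1-Naphthol, 1,5-Naphthalenediol or 2,7-Naphthalenediol, each at 30 µM, or with the solvent control DMSO. Each of the 5 groups had 3 arrays, described as independent experiments. The labels do not state the donors' age or number, or whether their cells were pooled, so the spread between arrays may leave out differences between animals. 1-Naphthol is naphthalene with a single hydroxyl group, and both diols carry a hydroxyl group on each ring, at different positions. Dose and time were the same for all compounds.

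Secreted and membrane proteins fold in the ER, where the Hsp70-type chaperone BiP, lectin chaperones and disulfide isomerases assist them, and chains that fail to fold are returned to the cytosol and destroyed by ER-associated degradation. When unfolded protein accumulates, the sensors IRE1, PERK and ATF6 start the unfolded protein response. ATF6 and the spliced form of XBP1 raise transcription of chaperone and degradation genes, and PERK slows translation and favours ATF4 and CHOP. Hepatocytes secrete most plasma proteins and depend on this machinery.

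Levels below are log2 of a probe's intensity over the 75th percentile of its array. Differences are log2 differences ± standard error (SE), the named compound minus DMSO unless another pair is named. A gene is said to have risen or fallen, or to be called, where limma's test across all 19803 features gave a Benjamini-Hochberg adjusted p below 0.05 within the comparison. The arrays lay on 2 slides. Slide 1 held all DMSO and 2,7-Naphthalenediol arrays and replicates 1 and 2 of 1,5-Naphthalenediol, and slide 2 held every 1-Naphthol and Naphthalene array and replicate 3 of 1,5-Naphthalenediol. Comparisons of 1-Naphthol or Naphthalene with DMSO therefore cross the slides. A fit with the slide as a block ties them together only through the 3 arrays of 1,5-Naphthalenediol, and it is given beside those results.

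Stress-response elements were looked for in the 250 bases before the annotated transcript start, taken from RefSeq (build GRCr8), on both strands. Of the 30 genes, 23 matched a promoter by symbol. The ER stress response element (ERSE), searched as CCAAT and CCACG with any 9 bases between them, stood before 8 of the 23 genes (34.8%), against 0.0657% of all 33469 promoters searched. These were Hspa5, Hsp90b1, Calr, Canx, Dnajc3, Creld2, Xbp1 and Derl3. ERSE-II, searched as ATTGG and CCACG with any 1 base between them, stood in Herpud1 and Hyou1 (8.7%, against 0.0418% of all promoters). The core of the unfolded protein response element (UPRE), searched as TGACGTG, stood in Hspa5 and Hyou1 (8.7%, against 1.54%), and in Hyou1 it overlapped an ERSE-II. A gene of the set counted where any promoter listed for it matched, while the shares over all count single promoters. Hyou1 had a 2nd listed promoter, not printed, which held none of the motifs. The set was chosen by name as genes of this response, so these shares are a description and not a test. The promoters below are those of genes the results turn on, with the letters fixed by a motif in capitals. Herpud1 and Hyou1 show ERSE-II, Hspa5, Hsp90b1 and Creld2 show ERSE, and Syvn1 held none of these motifs in this window. Each is written 5′ to 3′ on the strand of its gene.
Herpud1, chr19:10614708-10614957, minus strand: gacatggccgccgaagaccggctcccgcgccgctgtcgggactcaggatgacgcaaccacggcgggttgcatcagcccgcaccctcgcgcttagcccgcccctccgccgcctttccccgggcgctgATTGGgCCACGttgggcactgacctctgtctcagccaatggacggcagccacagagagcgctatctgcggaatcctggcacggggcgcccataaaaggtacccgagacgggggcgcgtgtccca
Hyou1, chr8:53602632-53602881, plus strand: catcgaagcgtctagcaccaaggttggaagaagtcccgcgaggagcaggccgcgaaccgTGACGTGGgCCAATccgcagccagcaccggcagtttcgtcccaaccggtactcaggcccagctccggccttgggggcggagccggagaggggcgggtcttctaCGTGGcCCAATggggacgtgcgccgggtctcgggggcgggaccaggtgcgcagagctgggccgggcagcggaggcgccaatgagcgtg
Hspa5, chr3:38452766-38453015, plus strand: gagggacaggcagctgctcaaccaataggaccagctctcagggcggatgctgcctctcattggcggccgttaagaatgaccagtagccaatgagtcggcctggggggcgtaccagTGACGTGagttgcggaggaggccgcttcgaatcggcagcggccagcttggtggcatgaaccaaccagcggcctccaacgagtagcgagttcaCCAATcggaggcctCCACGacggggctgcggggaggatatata
Hsp90b1, chr7:23012294-23012543, minus strand: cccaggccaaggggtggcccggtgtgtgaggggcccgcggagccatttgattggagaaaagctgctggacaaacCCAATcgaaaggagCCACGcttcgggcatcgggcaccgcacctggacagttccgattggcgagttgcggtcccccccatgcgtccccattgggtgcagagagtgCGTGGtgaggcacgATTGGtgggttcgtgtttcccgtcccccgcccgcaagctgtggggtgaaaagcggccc
Creld2, chr7:121789134-121789383, plus strand: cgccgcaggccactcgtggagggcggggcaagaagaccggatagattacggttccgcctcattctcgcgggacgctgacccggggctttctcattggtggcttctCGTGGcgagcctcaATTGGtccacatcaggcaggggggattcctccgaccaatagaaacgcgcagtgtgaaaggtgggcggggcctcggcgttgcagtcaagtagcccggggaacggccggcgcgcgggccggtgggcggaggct
Syvn1, chr1:212768658-212768907, plus strand: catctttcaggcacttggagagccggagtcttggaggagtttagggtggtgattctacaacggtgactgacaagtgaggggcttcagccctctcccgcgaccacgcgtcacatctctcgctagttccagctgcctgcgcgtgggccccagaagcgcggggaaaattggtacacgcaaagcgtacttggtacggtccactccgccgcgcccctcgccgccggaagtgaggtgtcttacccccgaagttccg

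**Figure D1:**
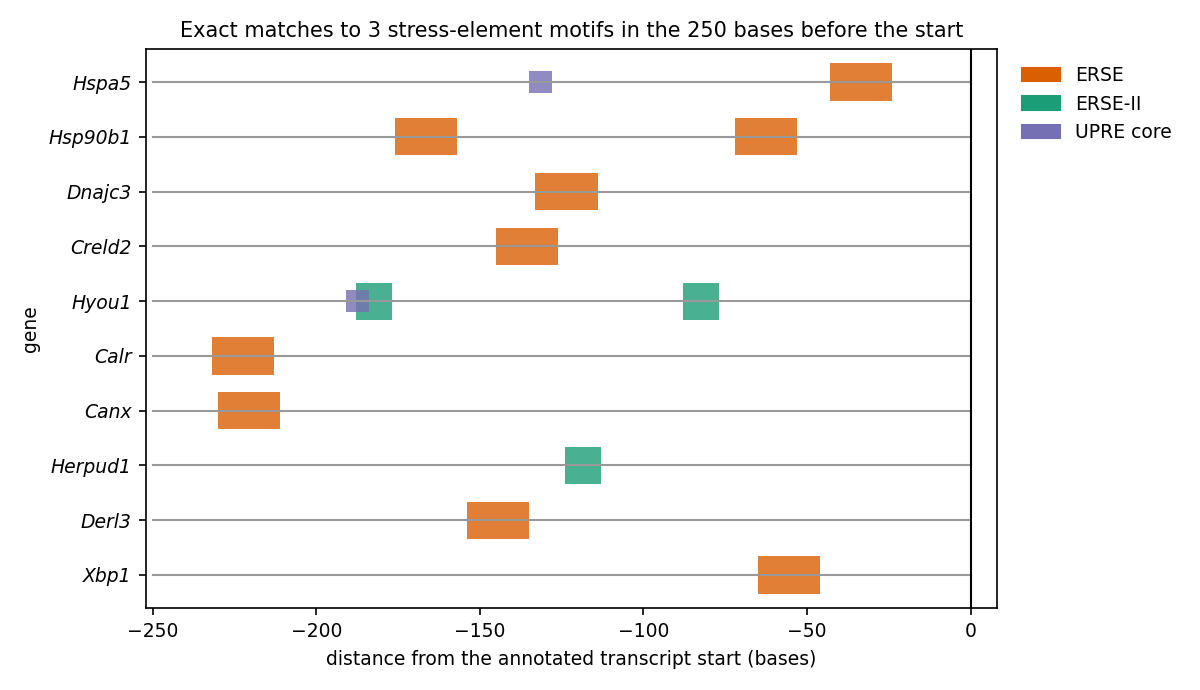
Position of exact motif matches (coloured boxes: ERSE, ERSE-II and UPRE core) in the 250 bases before the annotated start of the 10 genes with ERSE or ERSE-II. The horizontal axis is the distance from the start in bases and each line is 1 gene. Hsp90b1 held 2 ERSE matches and Hyou1 held 2 ERSE-II matches.

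Some degradation factors and some chaperones of the ER were called higher with all 3 hydroxylated compounds. Of these, Hyou1, Os9 and Syvn1 were also called higher with Naphthalene without the slide block. A 2nd probe of Os9 was not called with any compound. The other Edem1 probes were not called with the diols, and 1 of them was called higher with 1-Naphthol and with Naphthalene. With Naphthalene several chaperones were called lower, but only without the slide block. Against DMSO, 2,7-Naphthalenediol raised 9 of the 28 genes (32.1%, where 6.2% of all features were called higher) and lowered 0 (4.84% of all features were called lower). In this comparison 13 members were higher and 3 lower at an unadjusted p below 0.05 in limma (29.2% of all features in either direction). With 1,5-Naphthalenediol 9 genes rose (9.41% of all features) and 1 fell (12.7%). For 1-Naphthol 11 genes rose (10.2% of all features) and 0 fell (10.6%). At an unadjusted p below 0.05, 13 were higher and 3 lower (36.1% of all features in either direction). Naphthalene raised 4 genes (12.5% of all features) and lowered 7 (12.6%). With the slide as a block, 6 of the 11 1-Naphthol calls and 0 of the 11 Naphthalene calls were made in limma. At an unadjusted p below 0.05, 4 members were higher and 10 lower with Naphthalene without the block (39.3% of all features in either direction). With the block 7 were higher and 1 lower. The share of all features at that threshold was not computed with the block, here or below. The median log2 difference of the 28 genes was 0.09, 0.06, 0.08 and -0.02 for 2,7-Naphthalenediol, then 1,5-Naphthalenediol, then 1-Naphthol and then Naphthalene, and over all features tested it was -0.02, -0.01, -0.00 and -0.00. The counts rested on single arrays in part, and the shares of all features called fell as well. Without DMSO replicate 3 or 2,7-Naphthalenediol replicate 2, 4 genes rose with 2,7-Naphthalenediol (2.83% and 2.37% of all features). Without DMSO replicate 2 or 3 or 1-Naphthol replicate 2, 6 rose with 1-Naphthol (5.87%, 4.56% and 5.09%). With Naphthalene 2 rose without DMSO replicate 2 or 3 or Naphthalene replicate 1 (8.04%, 6.52% and 6.47%). In that comparison 3 fell without DMSO replicate 1 or 3 (8.89% and 6.52%). The 1 fall with 1,5-Naphthalenediol was not called without any 1 DMSO array (9.6%, 9.24% and 8.71% of all features were called lower). These 4 comparisons share the DMSO arrays and are not independent of each other. In bulk RNA, fewer cells of a type and less RNA per cell cannot be told apart.

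**Figure D2:**
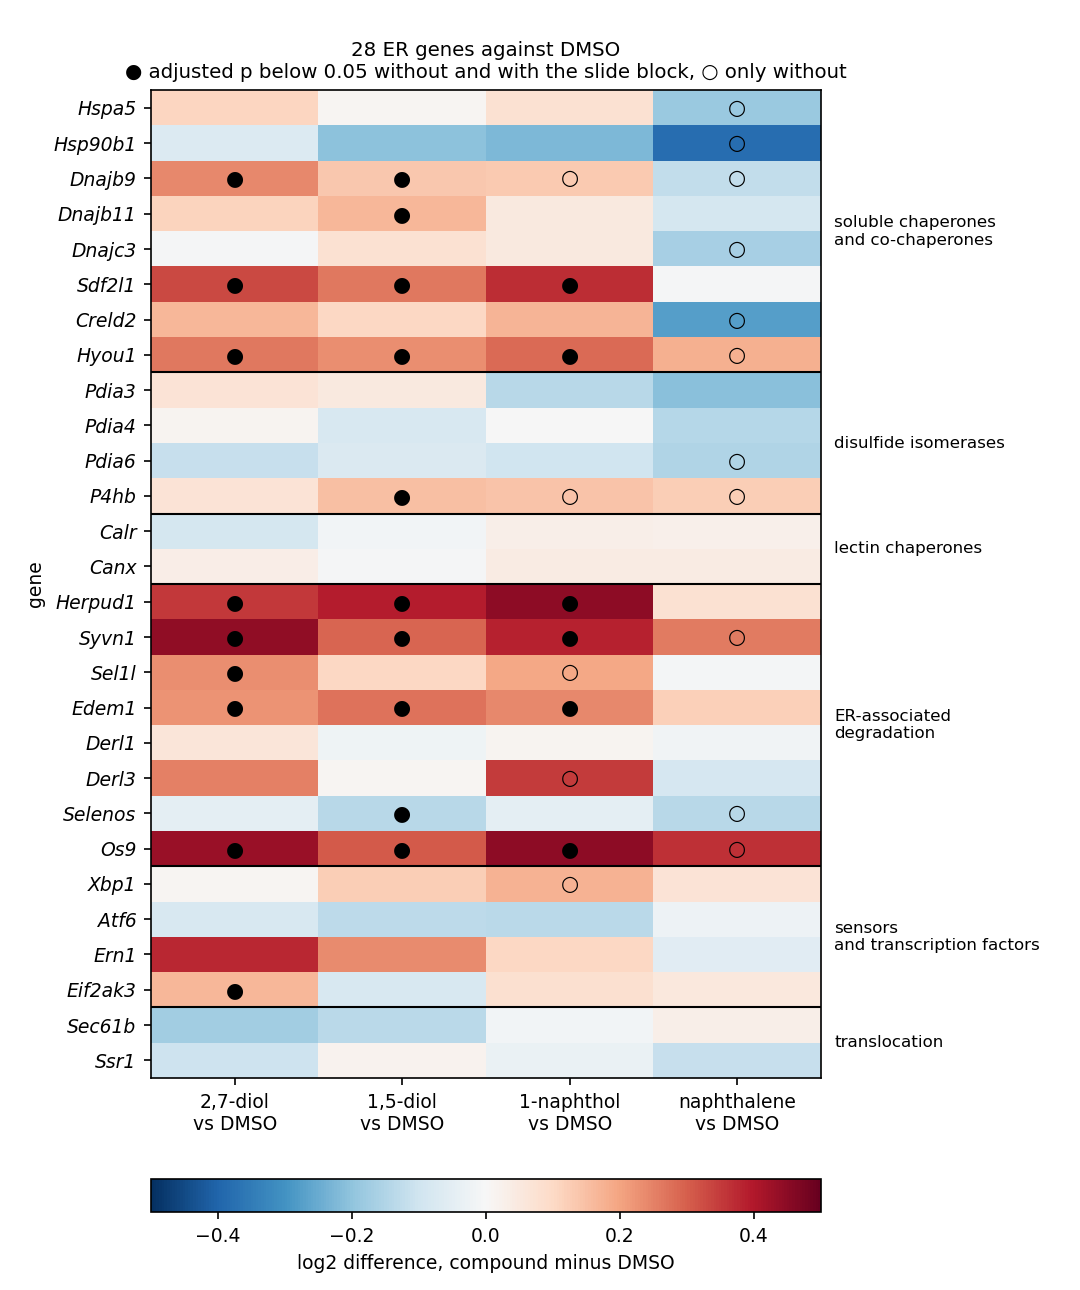
Log2 difference from DMSO (colour) for the 28 genes tested (vertical axis, grouped by role) with each compound (horizontal axis). Filled circles mark calls made both without and with the slide block and open circles calls made only without it. Herpud1, Syvn1, Edem1, Os9, Sdf2l1 and Hyou1 carry filled circles for all 3 hydroxylated compounds, and the Naphthalene column has open circles only.

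Among the 5 groups together, 18 of the 28 genes differed in limma's moderated F test (64.3%, where 44.7% of all features did), and 15 with the slide as a block (53.6%, where 26.2% of all features did). The lowest p-values belonged to Dnajb9, Syvn1, Herpud1, Os9 and Creld2. Against DMSO, Hyou1, Os9, Syvn1, Edem1, Herpud1 and Sdf2l1 were each called higher with all 3 hydroxylated compounds, both without and with the slide block. Because 2,7-Naphthalenediol and DMSO share slide 1, the block cannot change that difference. With 1,5-Naphthalenediol it sets only the slide 1 replicates against DMSO, and with 1-Naphthol it works through 1,5-Naphthalenediol replicate 3. With the block, 9 genes were higher and 1 lower with 2,7-Naphthalenediol (7.33% and 7.77% of all features), and 11 higher and 2 lower with 1,5-Naphthalenediol (9.18% and 12.9%). No call against DMSO was made for Atf6, Calr, Canx, Derl1, Ern1, Pdia3, Pdia4, Sec61b or Ssr1 without the block.

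Of the 8 tested genes of ER-associated degradation, 5 rose with 2,7-Naphthalenediol (6.2% of all features), 4 with 1,5-Naphthalenediol (9.41%), 6 with 1-Naphthol (10.2%) and 2 with Naphthalene (12.5%). These counts were 5, 4, 4 and 0 with the slide as a block (7.33%, 9.18%, 0.545% and 0.51% of all features). Herpud1 encodes an ER membrane protein that helps assemble the degradation complex. Its level was 3.89, 3.91 and 3.81 with 2,7-Naphthalenediol, 3.98, 3.97 and 3.78 with 1,5-Naphthalenediol, 3.95, 3.97 and 3.97 with 1-Naphthol, 3.64, 3.59 and 3.55 with Naphthalene, and 3.59, 3.48 and 3.48 with DMSO. Every array of the hydroxylated compounds lay above every Naphthalene and DMSO array, and the Naphthalene and DMSO arrays overlapped. The difference was 0.35 ± 0.055 with 2,7-Naphthalenediol (adjusted p = 0.00386), 0.39 ± 0.055 with 1,5-Naphthalenediol (adjusted p = 0.000459) and 0.45 ± 0.055 with 1-Naphthol (adjusted p = 0.000874), which are folds of 1.28, 1.31 and 1.36. With Naphthalene it was 0.08 ± 0.055 (adjusted p = 0.324).

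Syvn1, the ubiquitin ligase Hrd1 at the centre of ER-associated degradation, measured 1.51, 1.55 and 1.44 with 2,7-Naphthalenediol, 1.38, 1.36 and 1.30 with 1,5-Naphthalenediol, 1.41, 1.45 and 1.45 with 1-Naphthol, 1.36, 1.34 and 1.24 with Naphthalene, and 1.04, 1.03 and 1.08 with DMSO. All 12 arrays with a compound lay above the DMSO arrays. The rise was 0.44 ± 0.0427 with 2,7-Naphthalenediol (adjusted p = 0.000417), 0.29 ± 0.0427 with 1,5-Naphthalenediol (adjusted p = 0.000625), 0.38 ± 0.0427 with 1-Naphthol (adjusted p = 0.000453) and 0.26 ± 0.0427 with Naphthalene (adjusted p = 0.00304). With the slide block the Naphthalene difference was 0.33 and not called (adjusted p = 0.0597). A dimmer probe of Syvn1 also gave a higher level with the 3 hydroxylated compounds (differences of 0.59, 0.28 and 0.41), and with Naphthalene it gave 0.25 (adjusted p = 0.057).

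Os9 encodes a lectin that delivers misfolded glycoproteins to the Syvn1 complex. Its brighter probe read -1.36, -1.26 and -1.27 with 2,7-Naphthalenediol, -1.42, -1.35 and -1.49 with 1,5-Naphthalenediol, -1.33, -1.22 and -1.31 with 1-Naphthol, -1.39, -1.26 and -1.44 with Naphthalene, and -1.69, -1.79 and -1.71 with DMSO. This probe put all arrays with a compound above DMSO, by 0.43, 0.31, 0.45 and 0.37 ± 0.0577 in the same order of compounds (adjusted p = 0.0022, 0.0029, 0.00112 and 0.00269). The slide block ended the Naphthalene call (0.47, adjusted p = 0.0527). A 2nd probe of Os9 did not show this. Its differences were 0.09, 0.01, 0.08 and 0.11, with adjusted p between 0.309 and 0.922, so the Os9 calls rest on 1 of 2 probes.

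Edem1, which takes mannose-trimmed glycoproteins towards degradation, measured 4.03, 4.11 and 4.03 with 2,7-Naphthalenediol, 4.17, 4.21 and 3.94 with 1,5-Naphthalenediol, 4.05, 4.10 and 4.06 with 1-Naphthol, 3.97, 3.92 and 3.95 with Naphthalene, and 3.90, 3.76 and 3.83 with DMSO. It rose by 0.23, 0.27 and 0.24 ± 0.0627 with 2,7-Naphthalenediol, 1,5-Naphthalenediol and 1-Naphthol (adjusted p = 0.04, 0.00909 and 0.0212). The arrays of the hydroxylated compounds and of DMSO did not overlap, and replicate 3 of 1,5-Naphthalenediol lay below the others of its group. With Naphthalene the difference was 0.12 (adjusted p = 0.186). The calls with the diols rest on 1 of 3 Edem1 probes: the other two gave 0.04 and 0.16 with 2,7-Naphthalenediol and 0.09 and 0.14 with 1,5-Naphthalenediol and were not called. Of these other probes, 1 was called higher with 1-Naphthol (0.25) and with Naphthalene (0.24). The call with 2,7-Naphthalenediol ended without DMSO replicate 2 or 3 or without any 1 of the 2,7-Naphthalenediol arrays (adjusted p up to 0.132). That with 1-Naphthol ended without DMSO replicate 2 or 3 or without 1-Naphthol replicate 2 or 3 (adjusted p up to 0.0749).

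Of the other degradation genes, Sel1l, the membrane partner of Syvn1, rose by 0.23 ± 0.0563 with 2,7-Naphthalenediol (adjusted p = 0.0244) and 0.19 ± 0.0563 with 1-Naphthol (adjusted p = 0.0319). Its 2nd probe gave -0.03 and 0.09 and was not called. The 2,7-Naphthalenediol call of Sel1l ended without DMSO replicate 2 or 3 or any 1 array of the compound (adjusted p up to 0.0919), and the 1-Naphthol call without DMSO replicate 2 or 3 or 1-Naphthol replicate 1 or 2 (adjusted p up to 0.105) or with the slide block (adjusted p = 0.132). Derl3, a member of the derlin family that acts in moving proteins out of the ER, rose by 0.35 ± 0.111 with 1-Naphthol (adjusted p = 0.0433). That call held without DMSO replicate 1 and ended on leaving out any other single array of this pair of groups (adjusted p up to 0.156) and with the slide block (adjusted p = 0.157). The related Derl1 gave differences between -0.02 and 0.06. Selenos, a selenoprotein that links the degradation complex to the ATPase p97, was the only degradation gene that fell: by 0.14 ± 0.0395 with both 1,5-Naphthalenediol (adjusted p = 0.0278) and Naphthalene (adjusted p = 0.026). The first of these Selenos calls ended without any 1 DMSO array or 1,5-Naphthalenediol replicate 2 (adjusted p up to 0.0986), the other without any 1 DMSO array or Naphthalene replicate 1 or 2 (adjusted p up to 0.0803) or with the slide block (adjusted p = 0.207).

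**Figure D3:**
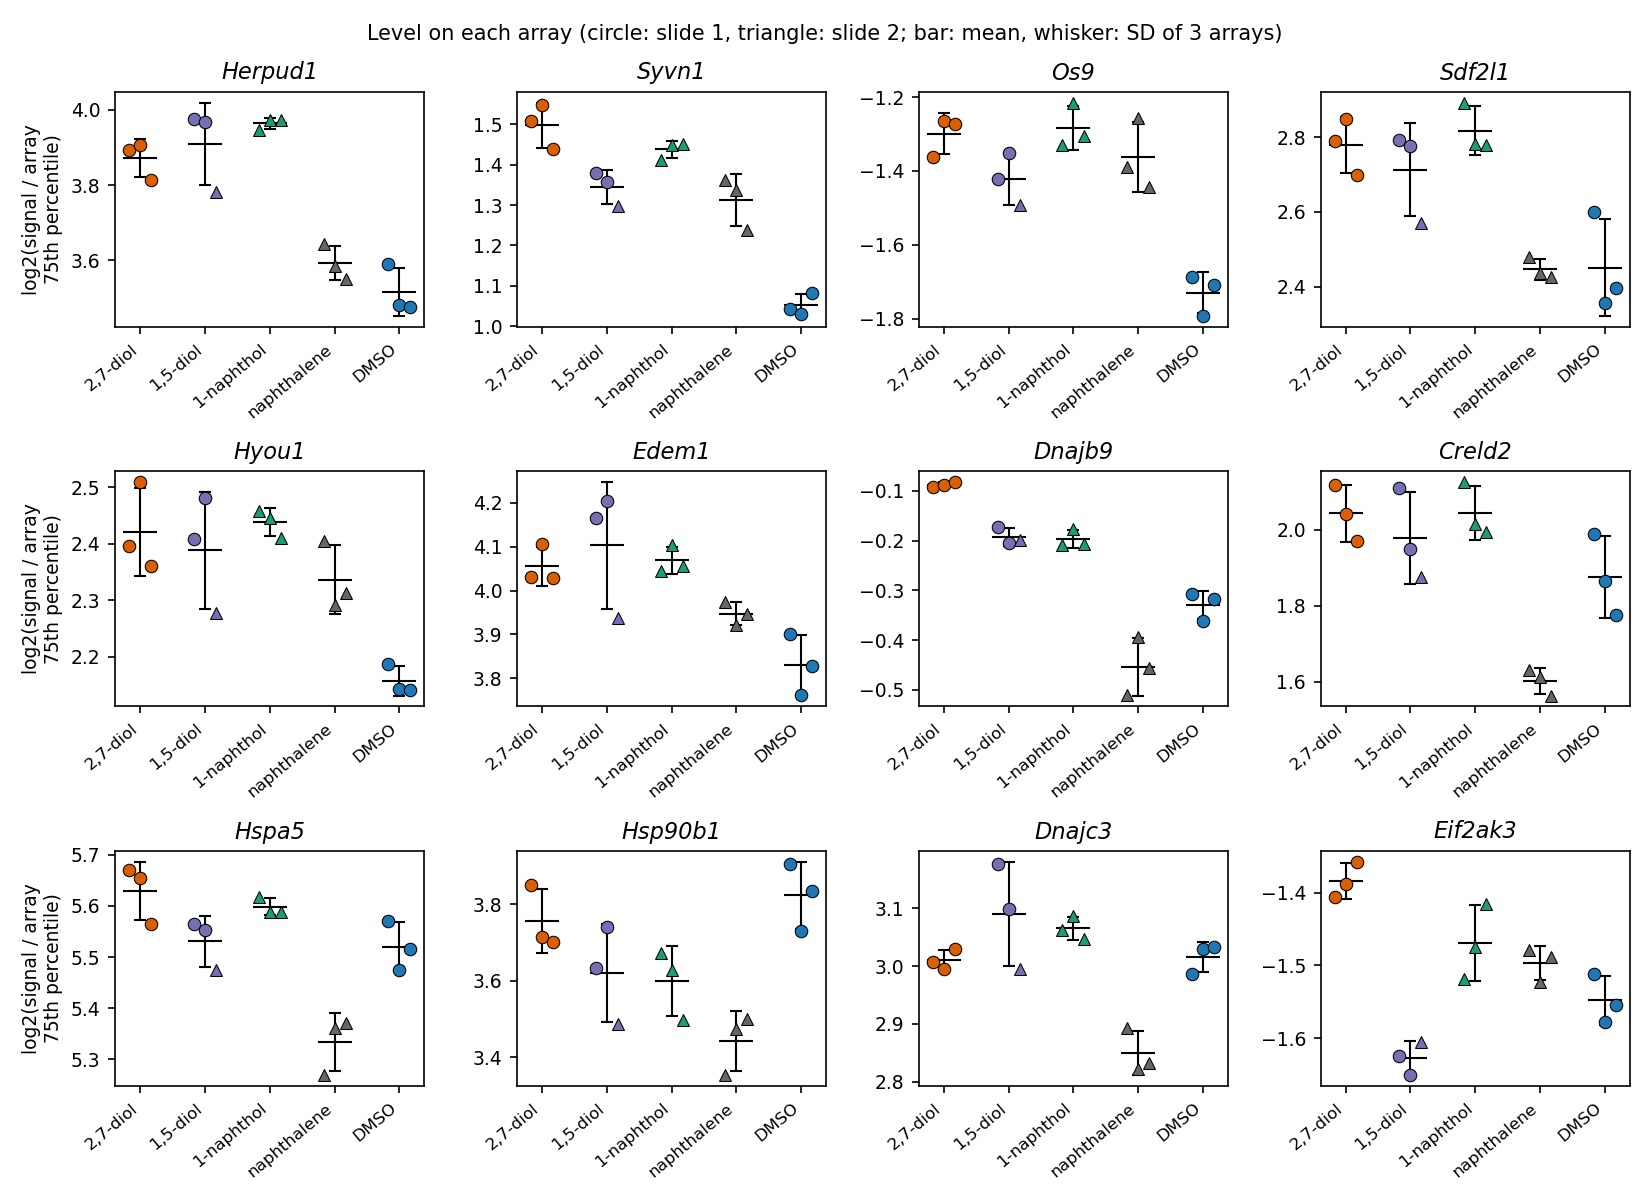
Level of 12 genes on each array (vertical axes, log2 of intensity over the array's 75th percentile) by group (horizontal axes). Points are arrays, circles on slide 1 and triangles on slide 2, and bars with whiskers are the mean and SD of 3 arrays. Herpud1 and Sdf2l1 are high with the 3 hydroxylated compounds, Creld2, Hspa5 and Dnajc3 are lowest with Naphthalene, and Eif2ak3 is lowest with 1,5-Naphthalenediol.

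The soluble chaperones split between the compounds. Of 8 tested, 3 rose with 2,7-Naphthalenediol (6.2% of all features), 4 with 1,5-Naphthalenediol (9.41%) and 3 with 1-Naphthol (10.2%). With Naphthalene 1 rose and 5 fell (12.5% and 12.6% of all features). Under the slide block 3, 5, 2 and 0 were higher with 2,7-Naphthalenediol, then 1,5-Naphthalenediol, then 1-Naphthol and then Naphthalene, and 0 were lower with Naphthalene. Of all features 7.33%, 9.18%, 0.545% and 0.51% were called higher under the block in that order, and 0.217% lower with Naphthalene. Sdf2l1, an ER protein that works with the co-chaperones of BiP, measured 2.79, 2.85 and 2.70 with 2,7-Naphthalenediol, 2.79, 2.78 and 2.57 with 1,5-Naphthalenediol, 2.89, 2.78 and 2.78 with 1-Naphthol, 2.48, 2.44 and 2.43 with Naphthalene, and 2.60, 2.36 and 2.40 with DMSO. It rose by 0.33, 0.26 and 0.37 ± 0.0741 with 2,7-Naphthalenediol, 1,5-Naphthalenediol and 1-Naphthol (adjusted p = 0.0185, 0.0248 and 0.00716). DMSO replicate 1 lay above the other DMSO arrays and overlapped with 1,5-Naphthalenediol. Without DMSO replicate 2 or 3 or the 2nd 2,7-Naphthalenediol array the first call ended (adjusted p up to 0.0761). That with 1,5-Naphthalenediol ended without DMSO replicate 2 or 3 or 1,5-Naphthalenediol replicate 1 or 2 (adjusted p up to 0.0925).

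Hyou1, an Hsp70-like protein that releases nucleotide from BiP, measured 2.40, 2.51 and 2.36 with 2,7-Naphthalenediol, 2.41, 2.48 and 2.28 with 1,5-Naphthalenediol, 2.46, 2.45 and 2.41 with 1-Naphthol, 2.41, 2.29 and 2.31 with Naphthalene, and 2.19, 2.14 and 2.14 with DMSO. No array with a compound overlapped with DMSO. Its differences were 0.26, 0.23, 0.28 and 0.18 ± 0.0557 in the same order (adjusted p = 0.0141, 0.0116, 0.00662 and 0.0353). The call with 2,7-Naphthalenediol ended without DMSO replicate 3 or 2,7-Naphthalenediol replicate 2 (adjusted p up to 0.0623). Without any 1 DMSO array or without Naphthalene replicate 1 or 2 the Naphthalene call ended (adjusted p up to 0.119), as it did with the slide block (0.35, adjusted p = 0.0672).

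Dnajb9 encodes ERdj4, a co-chaperone of BiP that also holds IRE1 in check. It read -0.09, -0.09 and -0.08 with 2,7-Naphthalenediol, -0.17, -0.21 and -0.20 with 1,5-Naphthalenediol, -0.21, -0.18 and -0.21 with 1-Naphthol, -0.51, -0.39 and -0.46 with Naphthalene, and -0.31, -0.36 and -0.32 with DMSO. The hydroxylated compounds lay above DMSO and Naphthalene below it, with no overlap. The differences were 0.24, 0.14, 0.13 and -0.12 ± 0.0349 (adjusted p = 0.0031, 0.0157, 0.0217 and 0.0241), so Dnajb9 was the only gene of the set called in both directions against DMSO. The 1,5-Naphthalenediol call of Dnajb9 ended without DMSO replicate 2 or 1,5-Naphthalenediol replicate 1 (adjusted p up to 0.0605) and the 1-Naphthol call without DMSO replicate 2 or 3 or 1-Naphthol replicate 2 or 3 (adjusted p up to 0.0773). The Naphthalene call ended without DMSO replicate 1 or 3 or Naphthalene replicate 1 (adjusted p up to 0.0846). With the slide block neither the 1-Naphthol nor the Naphthalene difference of Dnajb9 was called (adjusted p = 0.255 and 0.352).

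Hspa5, which encodes BiP itself, measured 5.67, 5.65 and 5.56 with 2,7-Naphthalenediol, 5.56, 5.55 and 5.47 with 1,5-Naphthalenediol, 5.62, 5.59 and 5.59 with 1-Naphthol, 5.27, 5.36 and 5.37 with Naphthalene, and 5.57, 5.48 and 5.52 with DMSO. It fell by 0.19 ± 0.044 with Naphthalene (adjusted p = 0.0122), whose 3 arrays lay below all others. This difference was -0.10 with the slide block and not called (adjusted p = 0.487). With 2,7-Naphthalenediol, 1,5-Naphthalenediol and 1-Naphthol the differences were 0.11, 0.01 and 0.08 (adjusted p = 0.124, 0.902 and 0.224). BiP was not called higher with any compound.

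Hsp90b1, the Hsp90 paralog of the ER (GRP94), read 3.85, 3.71 and 3.70 with 2,7-Naphthalenediol, 3.63, 3.74 and 3.49 with 1,5-Naphthalenediol, 3.67, 3.63 and 3.50 with 1-Naphthol, 3.35, 3.47 and 3.50 with Naphthalene, and 3.90, 3.73 and 3.83 with DMSO. Its fall with Naphthalene, by 0.38 ± 0.0757 (adjusted p = 0.00579, fold 0.768), was the largest called difference of the set in that comparison. Naphthalene lay below DMSO on every array. The difference was -0.18 with the slide block and the call was lost (adjusted p = 0.439). With 2,7-Naphthalenediol, 1,5-Naphthalenediol and 1-Naphthol the differences of Hsp90b1 were -0.07, -0.20 and -0.22 (adjusted p = 0.582, 0.0745 and 0.0544).

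Creld2, an ER-resident protein induced in ER stress, measured 2.12, 2.04 and 1.97 with 2,7-Naphthalenediol, 2.11, 1.95 and 1.88 with 1,5-Naphthalenediol, 2.13, 2.01 and 1.99 with 1-Naphthol, 1.63, 1.61 and 1.56 with Naphthalene, and 1.99, 1.86 and 1.78 with DMSO. It fell by 0.27 ± 0.0699 with Naphthalene (adjusted p = 0.0164), a call that ended without DMSO replicate 1 (adjusted p = 0.0574) and with the slide block, where the difference was -0.12 (adjusted p = 0.614). The arrays of both diols overlapped with DMSO and those of 1-Naphthol lay just above it, with differences of 0.17, 0.10 and 0.17 (adjusted p = 0.137, 0.325 and 0.106).

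Dnajc3 encodes the co-chaperone p58IPK, an inhibitor of PERK. Its level was 3.01, 3.0 and 3.03 with 2,7-Naphthalenediol, 3.18, 3.10 and 3.0 with 1,5-Naphthalenediol, 3.06, 3.09 and 3.05 with 1-Naphthol, 2.89, 2.82 and 2.83 with Naphthalene, and 2.99, 3.03 and 3.03 with DMSO. Dnajc3 fell by 0.17 ± 0.0437 with Naphthalene (adjusted p = 0.0187), and the call ended without DMSO replicate 2 or 3 or Naphthalene replicate 2 (adjusted p up to 0.0627) and with the slide block (-0.024, adjusted p = 0.86). Dnajb11, the co-chaperone ERdj3, measured 2.02, 2.04 and 1.92 with 2,7-Naphthalenediol, 2.08, 2.06 and 2.01 with 1,5-Naphthalenediol, 1.97, 1.92 and 1.91 with 1-Naphthol, 1.75, 1.85 and 1.78 with Naphthalene, and 1.88, 1.89 and 1.88 with DMSO. Only its difference with 1,5-Naphthalenediol, 0.17 ± 0.0401, was called (adjusted p = 0.0116). The Dnajb11 arrays of Naphthalene were the lowest of all groups, with a difference of -0.09 (adjusted p = 0.123).

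Of the 4 disulfide isomerases, P4hb, the founding protein disulfide isomerase, rose by 0.15 ± 0.033 with 1,5-Naphthalenediol (adjusted p = 0.00695), 0.14 ± 0.033 with 1-Naphthol (adjusted p = 0.0125) and 0.12 ± 0.033 with Naphthalene (adjusted p = 0.0209). Its difference with 2,7-Naphthalenediol was 0.07 (adjusted p = 0.183). The Naphthalene call of P4hb ended without DMSO replicate 2 or 3 or Naphthalene replicate 1 (adjusted p up to 0.071). With the slide block neither the 1-Naphthol nor the Naphthalene call of P4hb was made (adjusted p = 0.193 and 0.246). Pdia6 fell by 0.15 ± 0.0449 with Naphthalene (adjusted p = 0.0309), and only without Naphthalene replicate 3 did that call hold on leaving out 1 array of either group (adjusted p up to 0.11), and it ended with the slide block (-0.07, adjusted p = 0.648). Pdia3, which oxidises glycoproteins bound to the lectin chaperones, and Pdia4 were not called against DMSO, with differences from -0.21 to 0.07 and from -0.14 to 0.01. The lectin chaperones Calr and Canx were not called in any of the 10 comparisons. Their differences from DMSO lay between -0.09 and 0.03 for Calr and between -0.01 and 0.04 for Canx.

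Of the sensors, only Eif2ak3, which encodes PERK, was called higher with 2,7-Naphthalenediol. It read -1.41, -1.39 and -1.36 with 2,7-Naphthalenediol, -1.62, -1.65 and -1.61 with 1,5-Naphthalenediol, -1.52, -1.47 and -1.42 with 1-Naphthol, -1.48, -1.52 and -1.49 with Naphthalene, and -1.51, -1.58 and -1.55 with DMSO. The 2,7-Naphthalenediol arrays were the highest and the 1,5-Naphthalenediol arrays the lowest, with no overlap between these and any other group. The rise with 2,7-Naphthalenediol was 0.16 ± 0.0358 (adjusted p = 0.0162) and ended without DMSO replicate 2 or 3 or 2,7-Naphthalenediol replicate 2 or 3 (adjusted p up to 0.0616). With 1,5-Naphthalenediol the difference was -0.08 ± 0.0358 (adjusted p = 0.137). Xbp1, the transcription factor activated by IRE1, rose by 0.17 ± 0.0505 with 1-Naphthol (adjusted p = 0.0327), a call that ended on leaving out any 1 array of either group (adjusted p up to 0.0974) and that turned to -0.024 with the slide as a block. The splicing of Xbp1 was not analysed here. Ern1, which encodes IRE1, was dim, with levels between -6.33 and -5.37 and an SE of 0.217, and its differences of 0.38, 0.24, 0.10 and -0.06 were not called. With the slide as a block Ern1 was called higher with 1,5-Naphthalenediol (0.53, adjusted p = 0.0333), as was Dnajc3 (0.12, adjusted p = 0.0432). Atf6 gave differences between -0.13 and -0.02 and was not called. The translocation genes Sec61b, a subunit of the Sec61 channel, and Ssr1, of the translocon-associated protein complex, were not called against DMSO, with differences from -0.18 to 0.03 and from -0.11 to 0.02. With the slide as a block Sec61b was called lower with 2,7-Naphthalenediol (adjusted p = 0.0314) and 1,5-Naphthalenediol (adjusted p = 0.0256).

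Adding the slide as a block changed the calls in the comparisons that cross the slides. Whether the slide made the differences whose calls were lost was not tested. With the slide as a block, 6 of the 11 calls with 1-Naphthol remained, where 0.545% of all features were called higher and 0.581% lower: Herpud1 (0.64 ± 0.0751, adjusted p = 0.00437), Syvn1 (0.45 ± 0.0742, adjusted p = 0.024), Edem1 (0.49 ± 0.0747, adjusted p = 0.0187), Sdf2l1 (0.58 ± 0.115, adjusted p = 0.0415), Hyou1 (0.45 ± 0.0834, adjusted p = 0.0329) and Os9 (0.55 ± 0.1, adjusted p = 0.0316). For Naphthalene 0 of the 11 calls remained in limma with the block, where 0.51% of all features were called higher and 0.217% lower, and 7 members were higher and 1 lower at an unadjusted p below 0.05. The nearest of these were Os9 (0.47, adjusted p = 0.0527) and Syvn1 (0.33, adjusted p = 0.0597), and the falls of Hsp90b1, Hspa5 and Creld2 were -0.18, -0.10 and -0.12. The block leans on 1,5-Naphthalenediol replicate 3, the only array of that group on slide 2. For all 6 genes called with 1-Naphthol under the block, this array lay below replicates 1 and 2. Their 1-Naphthol differences were larger with the block than without it. Naphthalene and DMSO were measured only on different slides, so compound and slide cannot be told apart there except through 1,5-Naphthalenediol.

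**Figure D4:**
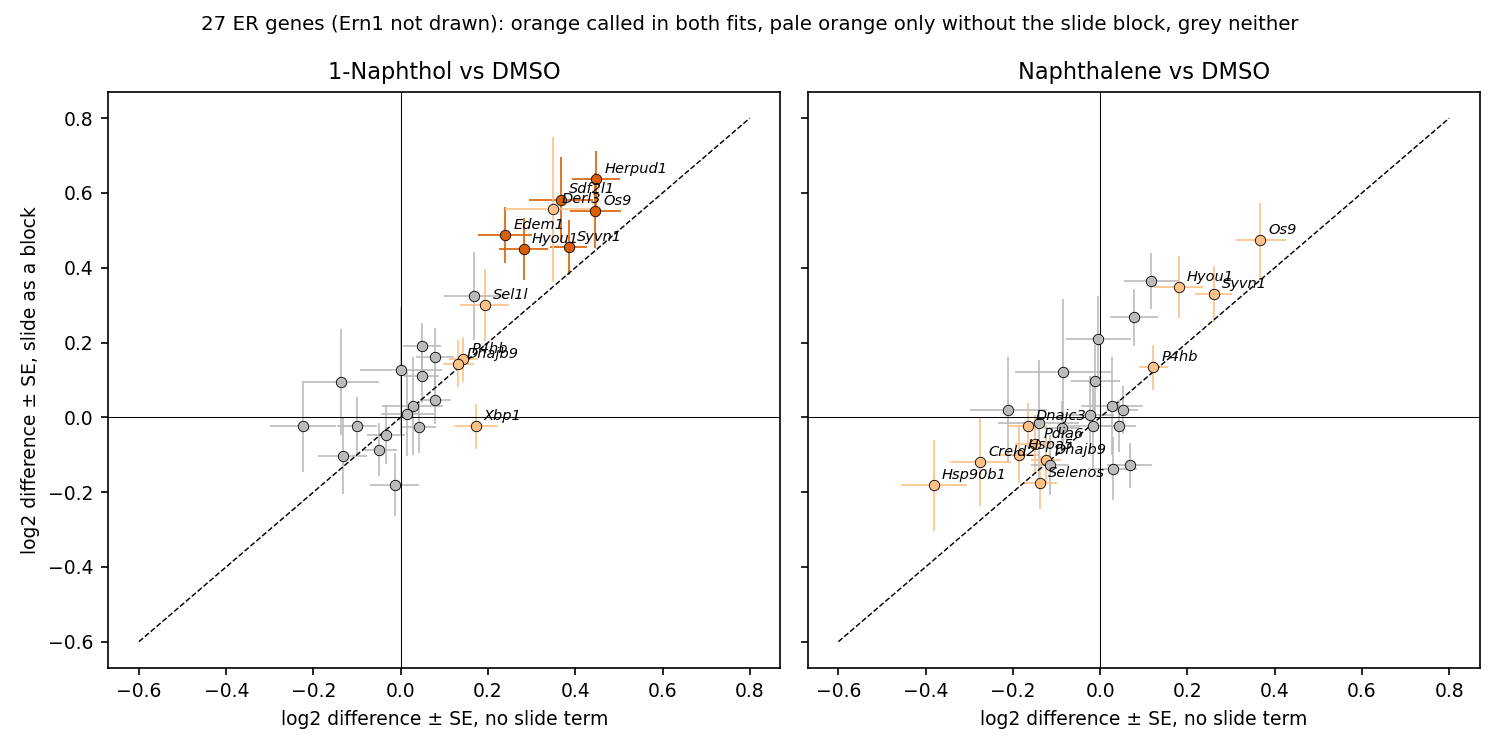
Log2 difference from DMSO without a slide term (horizontal axes) and with the slide as a block (vertical axes) for 1-Naphthol and for Naphthalene, with SE bars. Each point is 1 of 27 genes, Ern1 not being drawn, and the dashed line marks equal values. The 6 orange genes of the 1-Naphthol panel are called in both fits, and the Naphthalene panel has none.

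1-Naphthol and Naphthalene differ by a hydroxyl group and were measured on the same slide. With 1-Naphthol 6 genes were higher than with Naphthalene, where 1.04% of all features were called higher, and 0 were lower (1.4% of all features). At an unadjusted p below 0.05 in limma, 11 members were higher and 0 lower (17.3% of all features in either direction). Creld2 differed by 0.44 ± 0.0699 (adjusted p = 0.0072), Herpud1 by 0.37 ± 0.055 (adjusted p = 0.00598), Sdf2l1 by 0.37 ± 0.0741 (adjusted p = 0.023), Hspa5 by 0.26 ± 0.044 (adjusted p = 0.00997), Dnajb9 by 0.26 ± 0.0349 (adjusted p = 0.0039) and Dnajc3 by 0.22 ± 0.0437 (adjusted p = 0.025). Every 1-Naphthol array lay above every Naphthalene array in 14 of the 28 genes (50%), as in 11.8% of all features. The median difference of the 28 genes was 0.11, against 0.00 over all features. Leaving out any 1 array ended the Sdf2l1 call (adjusted p up to 0.101), and leaving out any except Naphthalene replicate 1 ended that of Dnajc3 (adjusted p up to 0.0989). With the arrays of slide 2 alone, which leaves fewer arrays to estimate the spread, Herpud1 (adjusted p = 0.0449) and Creld2 (adjusted p = 0.0493) were called, where 0.268% of all features were. Syvn1 was not called after adjustment, though its 95% interval of 0.03 to 0.22 lies above 0. Other genes not called had intervals such as -0.05 to 0.20 for Os9 and -0.09 to 0.09 for Canx.

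**Figure D5:**
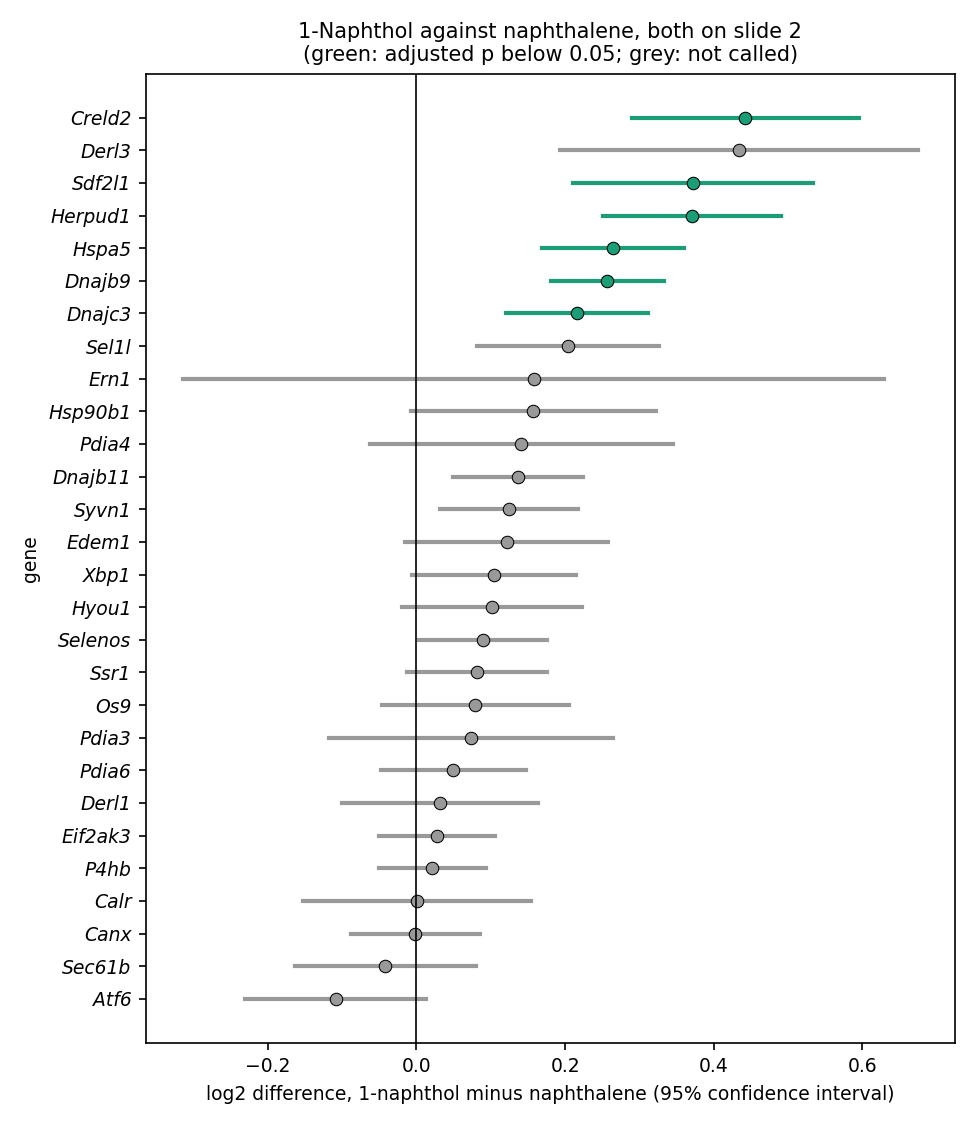
Log2 difference between 1-Naphthol and Naphthalene with its 95% confidence interval (horizontal axis) for the 28 genes (vertical axis), both groups being on slide 2. Green marks the 6 called genes, with Creld2 at 0.44 at the top, and grey the others.

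Both diols were also set against Naphthalene. With 1,5-Naphthalenediol 9 genes were higher (11.3% of all features) and 1, Eif2ak3, was lower (13.7%). With the slide as a block 3 were called (8.47% of all features): Dnajb9, Dnajb11 and Xbp1. These 3 calls rest on replicate 3 of 1,5-Naphthalenediol, its only array on slide 2. For Xbp1 that array read 1.41, against 1.19 and 1.23 for replicates 1 and 2. With 2,7-Naphthalenediol 11 genes were higher (6.32% of all features) and 1, Sec61b, was lower (9.5%), and with the slide as a block 0 in limma (0.0202% of all features), with 5 higher and 0 lower at an unadjusted p below 0.05. Creld2 had the largest called difference in both comparisons, 0.38 ± 0.0699 with 1,5-Naphthalenediol (adjusted p = 0.00287) and 0.44 ± 0.0699 with 2,7-Naphthalenediol (adjusted p = 0.00589). In these comparisons with Naphthalene, the 1,5-Naphthalenediol count fell to 6 without its replicate 2 (15.9% of all features) and was 13 without its replicate 3 (29.5%). The 2,7-Naphthalenediol count was 7 without its replicate 2 (9.93%). The Eif2ak3 difference of 1,5-Naphthalenediol from Naphthalene turned to 0.0038 with the mean of its probes, its 2nd probe giving 0.14 (adjusted p = 0.598). No array of 2,7-Naphthalenediol shares a slide with Naphthalene.

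Between the hydroxylated compounds few genes of the set were called. The 2 diols, which differ in the position of their hydroxyl groups, differed in Eif2ak3 and Syvn1, both lower with 1,5-Naphthalenediol than with 2,7-Naphthalenediol (2 of 28 genes, where 8.1% of all features were called lower and 6.62% higher). Eif2ak3 differed by -0.24 ± 0.0358 (adjusted p = 0.00101) and by -0.25 with the slide as a block (adjusted p = 0.00284), and it was called on leaving out each array of either group. Its dim 2nd probe gave -0.36 and was not called (adjusted p = 0.197). Syvn1 differed by -0.15 ± 0.0427 (adjusted p = 0.0326). The Syvn1 call ended with the slide block (adjusted p = 0.101) and without 1,5-Naphthalenediol replicate 2 or 3 or 2,7-Naphthalenediol replicate 1 or 2 (adjusted p up to 0.123). Between 1,5-Naphthalenediol and 1-Naphthol only Eif2ak3 was called, lower with 1,5-Naphthalenediol (4.8% of all features were called lower and 4.36% higher), with a difference of -0.16 ± 0.0358 (adjusted p = 0.0211). This call ended with the slide block (adjusted p = 0.217) and without 1,5-Naphthalenediol replicate 1 or 2 or 1-Naphthol replicate 2 or 3 (adjusted p up to 0.0893). The 2nd Eif2ak3 probe gave -0.085 for this pair and was not called (adjusted p = 0.796). Between 2,7-Naphthalenediol and 1-Naphthol 0 genes were called in limma (14.7% of all features), with a lowest adjusted p of 0.0516. At an unadjusted p below 0.05 there were 6 of 28 genes, a smaller share than the 30.9% of all features. The 95% interval of that difference was -0.21 to 0.03 for Herpud1, -0.03 to 0.15 for Syvn1 and -0.15 to 0.15 for Creld2. Compounds were compared in 6 pairs, each adjusted within the pair, and adjusting over all 10 comparisons together kept 69 of the 72 calls made for the set.

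Promoter motifs and calls are given side by side only as a description. Of the 10 genes with ERSE or ERSE-II in the 250 bases, 2, 2, 4 and 1 rose with 2,7-Naphthalenediol, then 1,5-Naphthalenediol, then 1-Naphthol and then Naphthalene, and 4 fell with Naphthalene: Hspa5, Hsp90b1, Creld2 and Dnajc3. Of the 12 tested genes whose window held neither motif, 6, 6, 6 and 2 rose, and 1 fell with 1,5-Naphthalenediol and 2 with Naphthalene. In the same order of compounds, 6.2%, 9.41%, 10.2% and 12.5% of all features were called higher. Called lower were 12.7% with 1,5-Naphthalenediol and 12.6% with Naphthalene. All these calls are those made without the slide block. The absence of these letters from the window says nothing about binding elsewhere.

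Other genes of the same pathways, from lists of further members, gave mixed counts. They are read against the shares of all features called higher and lower: 6.2% and 4.84% with 2,7-Naphthalenediol, 9.41% and 12.7% with 1,5-Naphthalenediol, 10.2% and 10.6% with 1-Naphthol, and 12.5% and 12.6% with Naphthalene. Of 18 genes of the PERK, ATF4 and CHOP branch, 4 rose and 0 fell with 2,7-Naphthalenediol, 3 rose and 7 fell with 1,5-Naphthalenediol, and 2 rose and 4 fell with each of 1-Naphthol and Naphthalene. With the slide as a block 1 was higher and 0 lower with each of 1-Naphthol and Naphthalene. Of all features 0.545% and 0.51% were then called higher, and 0.581% and 0.217% lower. Ppp1r15a, which restores translation after PERK has acted, rose by 0.35 ± 0.0588 with 2,7-Naphthalenediol (adjusted p = 0.00519), and the glutathione-degrading enzyme Chac1 by 0.22 ± 0.0628 (adjusted p = 0.0436). With 1,5-Naphthalenediol the stress-response gene Nupr1 fell by 0.54 ± 0.0588 (adjusted p = 8.73e-05) and the transcription factor Atf3 by 0.43 ± 0.0823 (adjusted p = 0.00349). Between the diols 10 of these 18 genes were lower and 2 higher with 1,5-Naphthalenediol than with 2,7-Naphthalenediol, with a median difference of -0.20. Of all features 8.1% were called lower and 6.62% higher in this pair. Atf3 differed by -0.60 ± 0.0823 (adjusted p = 0.00067) and Ppp1r15a by -0.39 ± 0.0588 (adjusted p = 0.00112). The slide block gave 9 lower calls and 1 higher call, where 10.9% of all features were called in either direction.

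Among 24 other genes of ER-associated degradation, 4 rose and 2 fell with 2,7-Naphthalenediol, 6 rose and 4 fell with 1,5-Naphthalenediol, 0 rose and 3 fell with 1-Naphthol, and 1 rose and 9 fell with Naphthalene. The block left 0 of the calls with 1-Naphthol or Naphthalene. The ubiquitin ligase gene Marchf6 rose by 0.26 ± 0.0586 with 2,7-Naphthalenediol (adjusted p = 0.018) and 0.32 ± 0.0586 with 1,5-Naphthalenediol (adjusted p = 0.00235). The ER lectin gene Erlec1 fell by 0.33 ± 0.0538 with Naphthalene (adjusted p = 0.00304) and 0.25 ± 0.0538 with 1-Naphthol (adjusted p = 0.0101), both calls ending with the slide block. It also fell with both diols. Of 22 other folding and oxidation genes, 2 rose with each compound and 0, 2, 1 and 3 fell with 2,7-Naphthalenediol, then 1,5-Naphthalenediol, then 1-Naphthol and then Naphthalene. Mogs, the glucosidase that starts the trimming of N-glycans, rose with every compound, by 0.20 to 0.29 ± 0.0431, and with the slide block its calls with 1-Naphthol and Naphthalene ended (adjusted p = 0.0746 and 0.0755). Of 27 genes of translocation, signal cleavage and glycosylation, at most 1 rose and at most 3 fell with any compound against DMSO. Of 12 other transducers and apoptosis genes, 4 rose with 2,7-Naphthalenediol, among them Atf6b, the paralog of Atf6, by 0.38 ± 0.0825 (adjusted p = 0.0165), 2 rose and 1 fell with 1,5-Naphthalenediol, 1 rose with 1-Naphthol and 3 with Naphthalene. With the slide block the folding list had 1 gene higher with 1-Naphthol and 0 called with Naphthalene, and the translocation and transducer lists had 0 calls with 1-Naphthol or Naphthalene.

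Array quality and markers of the cell types a liver preparation can hold were read from the same arrays. Between 57.4% and 61% of gene spots were well above background, 0 gene spots were saturated, and an array's 75th percentile was between 1718 and 2074 intensity units. All 12 hepatocyte markers were tested and their summed level, relative to the 75th percentile, was 699.9 to 715 with 2,7-Naphthalenediol, 670 to 711 with 1,5-Naphthalenediol, 683 to 713 with 1-Naphthol, 692 to 732 with Naphthalene and 732 to 746 with DMSO. Of the markers of other liver cells, 6 of 10 for stellate cells, 2 of 11 for macrophages, 3 of 10 for endothelial cells, 3 of 7 for bile duct cells and 2 of 8 for lymphocytes passed the filter on dim probes, and those of the macrophage and lymphocyte lists summed to at most 0.0885 and 0.0713. Bile duct markers summed to 0.478 to 0.513 with 2,7-Naphthalenediol, 0.520 to 0.537 with 1,5-Naphthalenediol, 0.463 to 0.555 with 1-Naphthol, 0.622 to 0.657 with Naphthalene and 0.614 to 0.666 with DMSO. This sum was thus lower with the 3 hydroxylated compounds, in which Herpud1, Edem1 and Sdf2l1 rose. Of the 3 bile duct markers tested, 1 was called lower with each of these compounds, and 1 was called higher with 1-Naphthol. Both 1-Naphthol calls ended with the slide block. The part of these markers in that result was not tested. With 2,7-Naphthalenediol, endothelial markers (1.68 to 1.87, against 1.87 to 2.08 with DMSO) and lymphocyte markers (0.0511 to 0.0556, against 0.0559 to 0.0713 with DMSO) were also lower without overlap, and their part was not tested. The hepatocyte sum was lowest with 1,5-Naphthalenediol and highest with DMSO. With each of the 3 hydroxylated compounds it lay below DMSO without overlap. For Naphthalene the overlap was slight, its highest array at 732.145 and the lowest DMSO array at 732.127. The lowest Naphthalene array, at 691.9, lay below every 2,7-Naphthalenediol array. The part of the hepatocyte sum in the results was not tested.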

How the data were processed

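RNA of 15 samples was hybridised to one-colour (Cy3) Agilent rat arrays. Per the file headers, the authors' Feature Extraction 10.7.1.1 subtracted background within each array and deposited 1 processed intensity per spot, not normalized between arrays, with the flags and the median signals of spot and background. Here, log2 intensity minus the array's 75th percentile was used, control spots and outlier-flagged spots were left out, and spots of a probe were averaged. The filter kept probes that all 3 arrays of some group measured well above background (23562 of 45598 probes, 7 of which had a missing value and were left out), and the brightest kept probe stood for a gene. The handling of replicate spots was set so that the number of features equals that of earlier processing of these data. Names came from RefSeq (assembly GRCr8), which gave 21229 probes 1 symbol. The headers name an older build, so no array coordinates are printed.

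The test was limma 3.58.1 under R 4.3.3, with 1 model of 5 group means over all 15 arrays, Benjamini-Hochberg adjusted within each of 10 comparisons, at 0.05, after tests on simulated data. Figures used matplotlib 3.10.9. The number of arrays limits the precision. P-values measure the spread between arrays said to be independent experiments. Replicate numbers did not pair the samples: after removal of group means, the correlation exceeded 0.1 in 2 of 30 pairs that share a number. The members and gene lists were chosen with earlier results of these data known. Every member is named. Values on each array are given for the 10 lowest p-values of the F test, for genes called in the same direction with at least 2 compounds without and with the slide block, and for the largest called difference of each comparison. From other lists at most 3 genes a comparison, with the largest called differences, are named. Alternatives were normexp background correction (offset 50), quantile normalization, no filter on dim probes, the mean of a gene's probes, the slide as a block or each slide alone, the replicate number as a block, adjustment over all comparisons, and leaving out each array. The mean spot signal had been planned for normexp. The median signal was used in its place because the files used here hold the median.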

Additional observations from a re-analysis of the deposited data

How the results depend on the processing

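In all, 72 calls for genes of the set over the 10 comparisons were recomputed. Direction and call held for 64 with normexp, 67 with quantile normalization, 31 with no filter on dim probes (which adds noisy features to the fit and the adjustment), 64 with the mean of a gene's probes, 34 with the slide as a block and 69 with adjustment over all comparisons. They held for 38 when each array was left out in turn, for 19 of 21 on slide 1 alone and for 2 of 17 on slide 2 alone, where fewer arrays enter. The replicate number as a block, which does not pair these samples, kept 71 of 72, and raised the calls between 1,5-Naphthalenediol and 1-Naphthol to 2 (7.71% of all features). In 2 cases the direction turned: Xbp1 with 1-Naphthol against DMSO (-0.024 with the slide block) and Eif2ak3 with 1,5-Naphthalenediol against Naphthalene (0.0038 with the mean of its probes). For both, the cause was not tested.

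With no filter on dim probes, 4, 5, 5 and 2 genes were higher than in DMSO with 2,7-Naphthalenediol, then 1,5-Naphthalenediol, then 1-Naphthol and then Naphthalene, and 0 were lower with 1,5-Naphthalenediol and 1 with Naphthalene. Of the 38995 features then tested, 0.923%, 2.72%, 2.35% and 2.93% were called higher in that order. With 1,5-Naphthalenediol 3.49% and with Naphthalene 2.66% were called lower. Calls were 3 for 1-Naphthol, 6 for 1,5-Naphthalenediol and 4 for 2,7-Naphthalenediol against Naphthalene, 0 for 1,5-Naphthalenediol against 1-Naphthol and 1 between the diols. In that order 0.364%, 6.48%, 2.62%, 1.47% and 3.53% of all features were called. With the slide as a block, 6 and 0 were higher with 1-Naphthol and Naphthalene (0.545% and 0.51% of all features). In that fit 1, 2 and 0 were lower with 2,7-Naphthalenediol, 1,5-Naphthalenediol and Naphthalene (7.77%, 12.9% and 0.217%). Against Naphthalene the block left 3 calls with 1,5-Naphthalenediol and 0 with 2,7-Naphthalenediol (8.47% and 0.0202% of all features). It left 0 for 1,5-Naphthalenediol against 1-Naphthol (1.87%) and 1 between the diols (10.9%). Normexp gave 0 lower with 1,5-Naphthalenediol (11.1% of all features) and 2 higher with Naphthalene (17%). It gave 3 for 1,5-Naphthalenediol (10.9%) and 1 for 2,7-Naphthalenediol (17.2%) against 1-Naphthol, and 1 between the diols (12.6%). Quantile normalization and adjustment over all comparisons each gave 1 for 2,7-Naphthalenediol against 1-Naphthol (14.7% and 15.2% of all features). The mean of probes gave 0 for 1,5-Naphthalenediol against 1-Naphthol (8.66%). Slide 1 alone gave 1 between the diols (8.04% of all features). Slide 2 alone gave 2 for 1-Naphthol against Naphthalene (0.268%). The F test was not run for single slides or with adjustment over all comparisons.

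Leaving out 1 array at a time, 15 to 21 genes differed in the F test, where 34.2% to 47% of all features did. Against DMSO, 4 to 9 (2,7-Naphthalenediol), 7 to 11 (1,5-Naphthalenediol), 6 to 10 (1-Naphthol) and 2 to 4 (Naphthalene) were higher, and 0 to 0, 0 to 2, 0 to 0 and 3 to 9 lower. Of all features 2.37% to 4.76%, 6.45% to 9.18%, 4.27% to 7.96% and 6.47% to 12.6% were called higher in that order. Called lower were 1.33% to 3.39%, 8.71% to 12.9%, 5.5% to 7.73% and 6.52% to 12.6%. Against Naphthalene, 4 to 5 (1-Naphthol), 6 to 13 (1,5-Naphthalenediol) and 7 to 10 (2,7-Naphthalenediol) were called. The shares of all features were 0.889% to 2.39%, 15.9% to 29.5% and 5.96% to 12.5%. Against 1-Naphthol it was 0 to 2 for 1,5-Naphthalenediol and 0 to 0 for 2,7-Naphthalenediol, and 1 to 2 between the diols. In that order 3.5% to 17.2%, 5.96% to 9.09% and 9.21% to 13.3% of all features were called. Without 1,5-Naphthalenediol replicate 3, its comparisons with DMSO, Naphthalene and 1-Naphthol and the F test each had their highest counts. Signal over background limits Ern1, the dimmest gene of the set.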

Other observations

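Averaged over the 28 genes and set against the mean of all 15 arrays, the level was 0.04 to 0.09 on the 2,7-Naphthalenediol arrays, 0.06, 0.05 and -0.05 on the 1,5-Naphthalenediol arrays, 0.04 to 0.07 on the 1-Naphthol arrays, -0.09 to -0.08 on the Naphthalene arrays and -0.08 to -0.01 on the DMSO arrays. The low value among the 1,5-Naphthalenediol arrays belonged to replicate 3, the one on slide 2.

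Genes with more than 1 kept probe did not always show the same change on each. For Edem1, whose brightest probe was called with 3 compounds, a 2nd probe rose with 1-Naphthol (0.25 ± 0.0761, adjusted p = 0.0379) and Naphthalene (0.24 ± 0.0761, adjusted p = 0.0416) and gave 0.04 and 0.09 with 2,7-Naphthalenediol and 1,5-Naphthalenediol, and the other Edem1 probe gave 0.11 to 0.17 and was not called. For Ssr1, whose brightest probe was not called against DMSO, the other probe fell by 0.16 ± 0.0431 with Naphthalene (adjusted p = 0.0218). Both Derl3 probes gave positive differences with 1-Naphthol (0.35 and 0.43). The dim 2nd probe of Eif2ak3 gave 0.42 ± 0.172 with 2,7-Naphthalenediol against DMSO (adjusted p = 0.13).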
